A study of Mus musculus with 6 samples.

Results

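The fibrillar collagen genes examined here are Col1a1, Col1a2, Col3a1, Col5a1, Col5a2, Col5a3 and Col11a1, which encode fibril-forming chains of collagen types I, III, V and XI. They were selected by gene symbol, as 7 of the 55364 genes listed, with earlier results of these data known. Each of the 7 had enough reads to be tested. RNA was read from the 3′ end of transcripts by Quant-Seq in primary mouse lung fibroblasts (LFs), with 3 libraries of wt LFs compared with 3 libraries of Tks5+/- LFs. All libraries came from cells kept for 24 h in serum-free medium with 10 ng/ml TGFβ1, so the comparison is between genotypes under TGFβ and holds no untreated cells. Tks5 is the podosome scaffold protein encoded by Sh3pxd2a.

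In the labels the other genotype is named TKS5 KO, whereas the study's text describes LFs of heterozygous Tks5+/- mice, and the latter name is used here. The LFs were isolated from C57Bl6/J mice of 8 to 10 weeks and used at passage 2 to 3. Tks5+/- mice carried 1 inactivated Sh3pxd2a allele in all tissues after recombination by a Cre driven by the CMV promoter, and wt mice were littermates. Which of the study's heterozygous alleles (tm1b or tm1d) these LFs carried, and whether each library came from a separate mouse or culture, is not given in the sources used here, so the p-values measure only the spread between these libraries. Sh3pxd2a itself had 205, 190 and 284 reads in wt libraries and 238, 258 and 260 in the libraries labelled Tks5+/-, with a log2 fold change of 0.29 (95% interval -0.13 to 0.71, adjusted p = 0.249). These reads were thus not lower in Tks5+/- LFs. They were counted at the 3′ UTR, which lies after the targeted internal exon, and whether they check the labels depends on the allele. By Q-RT-PCR, a different measure, the study reported lower Tks5 mRNA in Tks5+/- LFs than in wt LFs.

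Fibrillar collagens are secreted as procollagens, in which 3 chains wind into a long uninterrupted triple helix, and they assemble outside the cell into the banded fibrils that give the lung its tensile strength. Type I collagen joins chains of Col1a1 and Col1a2, type III is a homotrimer of Col3a1 chains, and the less abundant types V and XI enter the same fibrils, where they set fibril initiation and diameter. TGFβ is a classical inducer of fibrillar collagen transcription in fibroblasts, and excess deposition of types I and III marks pulmonary fibrosis.

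Library totals ran from 1344507 to 2369882 reads in wt LFs and from 1979084 to 2329155 in Tks5+/- LFs, and the 7 genes took 0.362% to 0.650% of them. Levels are given as CPM, a read count scaled to a common library size after TMM normalization, and a gene was called at a Benjamini-Hochberg adjusted p under 0.05 by edgeR's quasi-likelihood test with a fold change of at least 1.2. Over the 10346 genes tested, the log2 fold change had a median of -0.046 on this scale and of -0.47 when libraries were scaled by their totals alone. Of these genes 44.9% were called, 22.8% higher and 22.1% lower. Summed CPM of 14 fibroblast markers were 11512 to 14808 in wt LFs and 12782 to 17438 in Tks5+/- LFs, with S100a4 giving most of the sum, and of 12 tested 4 were called higher (Vim, Pdgfra, Thy1 and Tcf21) and 1 lower (Pdgfrb). The 18 macrophage markers summed to 450, 375 and 2311 CPM in wt libraries 1, 2 and 3 and to 142 to 152 CPM in Tks5+/- libraries, with 7 of 13 tested called lower. The 11 endothelial markers summed to 121 to 155 CPM in wt and 45.6 to 61.4 CPM in Tks5+/- LFs, with 4 of 5 tested called lower. Epithelial markers (16) summed to 35.3 to 73.4 and 31.2 to 63.8 CPM, with Sftpc, Sftpb, Sftpa1, Scgb1a1 and Nkx2-1 at 0 in all libraries, and of 3 tested Krt18 and Cldn4 were called lower and Ager higher. Mesothelial markers (6) summed to 27.8 to 38.6 and 5.12 to 14.3 CPM, with both tested called lower. Smooth muscle and pericyte markers (9) summed to 494 to 546 and 651 to 773 CPM, but of 7 tested 4 were called lower (Myh11, Des, Cspg4 and Notch3) and 1 higher, Cnn1, which rose from 248 ± 26.4 to 496 ± 77.0 CPM (SD, n = 3 each). Cartilage cells also make type XI collagen, and their 8 markers summed to 43.8 to 57.8 CPM in wt and 24.6 to 31.2 CPM in Tks5+/- LFs, with Matn1 at 0 and the 1 tested, Sox9, called lower. Of sex-linked genes, Xist had 0 counts in all libraries, Eif2s3y was not called, and Ddx3y fell from 85.6 ± 8.07 to 11.9 ± 1.62 CPM (SD, n = 3 each; log2 fold change -2.84, adjusted p = 1.45e-08). The part of these cells and of sex-linked differences in the results was not tested, and in such bulk RNA fewer cells of a type and less RNA per cell cannot be told apart.

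Of the 7 fibrillar collagen genes, 1 was called lower in Tks5+/- LFs, Col5a3, and 1 was called higher, Col3a1, while the other 5 were not called. These 2 calls are 28.6% of the members, against 44.9% of all genes tested (22.8% called higher and 22.1% called lower), and so make no result about the members as a set. The members' median log2 fold change was 0.16. Col5a3 was also the only member whose wt and Tks5+/- libraries did not overlap, which held for 53.8% of all genes tested and, with Tks5+/- LFs lower, for 27.6%.

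Col1a1 (ENSMUSG00000001506, GRCm38 chr11:94936224-94953042, plus strand), the gene of the α1 chain of type I collagen, gave the most reads of the 7. It stood at 1912, 2377 and 1456 CPM in wt libraries 1 to 3 and at 3528, 2232 and 2077 CPM in Tks5+/- libraries 1 to 3. The genotypes overlapped, and the first Tks5+/- library was above the other five. Mean levels were 1915 ± 461 CPM (SD, n = 3) in wt and 2612 ± 797 CPM (SD, n = 3) in Tks5+/- LFs, a log2 fold change of 0.45 (95% interval -0.044 to 0.94, standard error 0.24, adjusted p = 0.130). The authors' normalized counts, tested with limma, gave -0.11.

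Col1a2 (ENSMUSG00000029661, chr6:4504814-4541544, plus strand) encodes the α2 chain of type I collagen. Its levels were 1117, 1074 and 733 CPM in wt and 1776, 1162 and 886 CPM in Tks5+/- libraries. The same library was highest and the same library lowest as for Col1a1, but the order of the libraries between them differed. The log2 fold change was 0.39 (95% interval -0.12 to 0.89, standard error 0.24, adjusted p = 0.203), and it fell to -0.013 with library totals and -0.36 with the authors' normalized counts. For both type I chains the interval covers a log2 difference of 0.89 upward and only 0.12 downward or less on this scale.

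Col3a1 (ENSMUSG00000026043, chr1:45311538-45349706, plus strand) encodes the single chain of type III collagen, the partner of type I in the extensible fibrils of the lung interstitium. It measured 355, 473 and 231 CPM in wt libraries and 718, 399.7 and 531 CPM in Tks5+/- libraries. The highest wt library lay above the lowest Tks5+/- library, so the genotypes overlapped. The means of 353 ± 121 CPM (SD, n = 3) and 549.6 ± 160.2 CPM (SD, n = 3) gave a 1.56-fold rise with a 95% interval of 1.08 to 2.25, or 0.64 on the log2 scale (standard error 0.25, adjusted p = 0.0451). The exact two-sided permutation test of the CPM gave p = 0.2. The call was lost without wt library 1 (0.64, adjusted p = 0.102), wt library 3 (0.40, adjusted p = 0.214), Tks5+/- library 1 (0.45, adjusted p = 0.179) or Tks5+/- library 3 (0.69, adjusted p = 0.0698). Macrophage markers were highest in wt library 3, where Col3a1 was lowest. Col1a1, Col1a2, Col5a2 and Col11a1 were also lowest in that library, whereas Col5a3 was highest and Col5a1 was neither. The part of those cells in these differences was not tested.

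**Figure D1:**
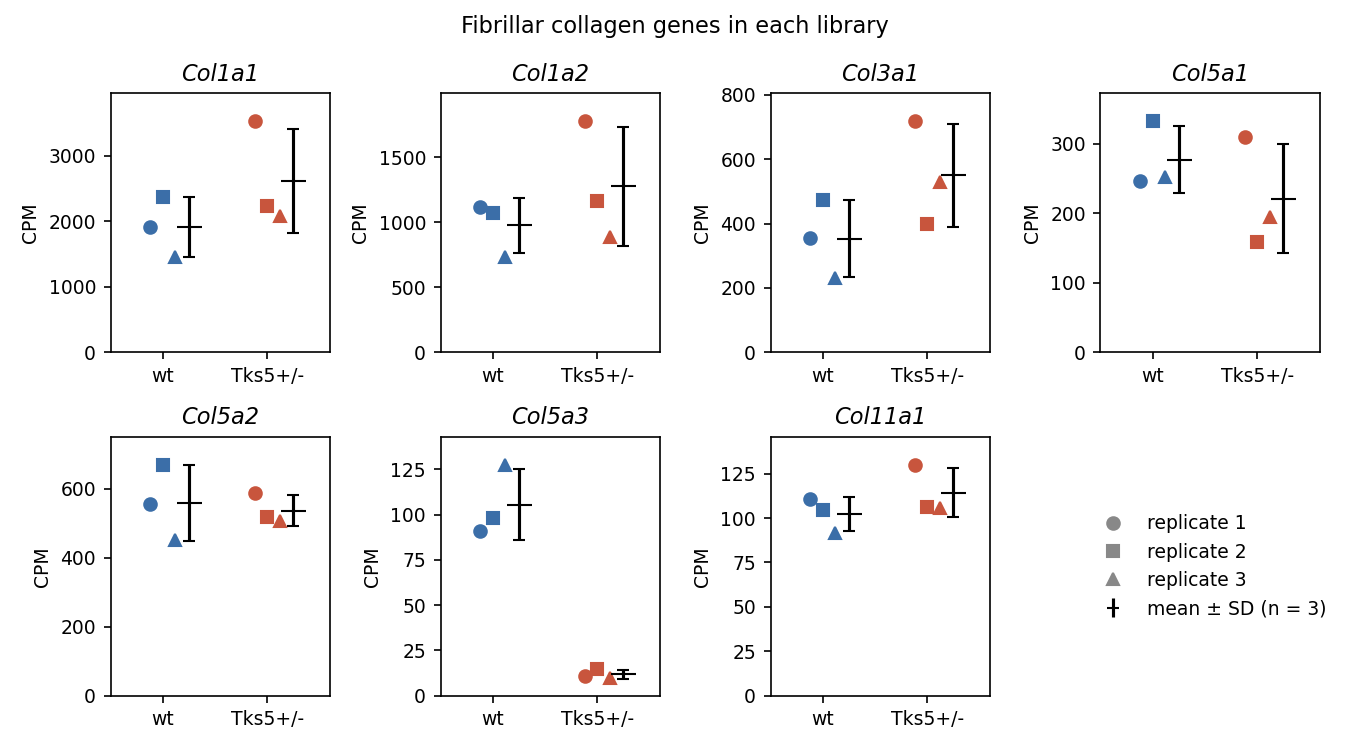
CPM (TMM-scaled) of each fibrillar collagen gene in the 3 wt libraries (blue) and the 3 Tks5+/- libraries (red), each panel with its own axis from 0; marker shapes give replicate numbers, and the black bar is the mean ± SD (n = 3). Col5a3 is the one gene whose libraries do not overlap, at 90.8 to 128 CPM against 9.72 to 14.6 CPM, and Tks5+/- library 1 is the highest library for Col1a1, Col1a2, Col3a1 and Col11a1.

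Col5a1 (ENSMUSG00000026837, chr2:27886425-28039514, plus strand) encodes the α1 chain that is present in the usual forms of type V collagen. It stood at 247, 333 and 252 CPM in wt and 309, 159 and 195 CPM in Tks5+/- libraries. Here 2 of the 3 Tks5+/- libraries lay below every wt library and the other was second highest. The log2 fold change was -0.32 (standard error 0.23, 95% interval -0.81 to 0.16, adjusted p = 0.269), and without Tks5+/- library 1 it became -0.59 and was called lower (adjusted p = 0.0392).

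Col5a2 (ENSMUSG00000026042, chr1:45374321-45503282, minus strand), the α2 chain of type V, lies tail to tail with Col3a1, 24.6 kb away. It measured 555, 669 and 451 CPM in wt and 587, 517 and 507 CPM in Tks5+/- libraries. All 3 Tks5+/- values fell inside the wt range. The log2 fold change was -0.057 (standard error 0.21, 95% interval -0.48 to 0.37, adjusted p = 0.841), with a sign that turned without wt library 2 (0.090) or Tks5+/- library 3 (0.017).

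Col5a3 (ENSMUSG00000004098, chr9:20770050-20815067, minus strand) encodes the α3 chain, a less widespread partner that joins α1 and α2 in a heterotrimer of type V collagen. It had 141, 183 and 344 reads in wt libraries against 20, 25 and 19 in Tks5+/- libraries, or 90.8, 97.9 and 128 CPM against 11.0, 14.6 and 9.72 CPM. The lowest wt library held several times the level of the highest Tks5+/- library. From 105 ± 19.5 CPM (SD, n = 3) the gene fell to 11.8 ± 2.55 CPM (SD, n = 3), 8.99-fold lower. On the log2 scale the change was -3.17 (95% interval -3.70 to -2.63, standard error 0.26, adjusted p = 6.67e-09). Only 0.841% of the genes tested had a lower log2 fold change. It was called lower in all 21 alternative settings, at log2 fold changes from -3.59 to -2.56 and a largest adjusted p of 1.23e-06. The exact permutation test gave p = 0.1, the smallest that 3 libraries against 3 allow.

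Col11a1 (ENSMUSG00000027966, chr3:114030540-114220718, plus strand) encodes the α1 chain of type XI collagen, best known from cartilage and closely related to Col5a1, with which its chain can co-assemble. Its levels were 111, 104 and 91.6 CPM in wt and 130.1, 106 and 106 CPM in Tks5+/- libraries. The genotypes overlapped within a narrow range. The log2 fold change was 0.16 (standard error 0.20, 95% interval -0.26 to 0.58, adjusted p = 0.539), and it was -0.25 with library totals alone. Among its close relatives, Col2a1, Col11a2, Col24a1 and Col27a1 had too few reads to be tested and summed to 2.57 to 5.89 CPM in wt and 1.02 to 4.39 CPM in Tks5+/- libraries, with Col24a1 at 0 and Col2a1 at no more than 3 reads in every library.

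No annotated gene other than the member itself overlaps the 3′ UTR of any of the 7 genes or its 50-base flank, where the reads were counted. The 6 annotated genes that overlap a member elsewhere had 0 to 5 reads in any library. Of these, Gm38211 within Col5a2 had 5, 3 and 4 reads in wt and 1, 0 and 1 in Tks5+/- libraries.

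The promoters of the 2 members that were called, in opposite directions, are shown because these genes had the highest and the lowest log2 fold change of the 7. Each is the 250 bases before the annotated start from RefSeq (GRCm38.p6), which held a promoter for 5 of the 7 members (Col1a2, Col3a1, Col5a1, Col5a3 and Col11a1), written 5′ to 3′ on the gene's strand. Capitals mark the letters of CCAAT (which binds NF-Y), of TATAAA (which binds the TBP protein), of GGGCGG (which binds Sp1) and of CAGACA (which binds Smad proteins) on either strand, and none of these matches overlap. The Col3a1 window is chr1:45311288-45311537 on the plus strand and the Col5a3 window is chr9:20815068-20815317 on the minus strand.
Col3a1: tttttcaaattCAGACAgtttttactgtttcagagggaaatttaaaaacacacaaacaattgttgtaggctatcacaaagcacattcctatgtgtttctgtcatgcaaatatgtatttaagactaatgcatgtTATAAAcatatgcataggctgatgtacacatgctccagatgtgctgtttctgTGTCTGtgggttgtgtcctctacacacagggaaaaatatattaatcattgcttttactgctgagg
Col5a3: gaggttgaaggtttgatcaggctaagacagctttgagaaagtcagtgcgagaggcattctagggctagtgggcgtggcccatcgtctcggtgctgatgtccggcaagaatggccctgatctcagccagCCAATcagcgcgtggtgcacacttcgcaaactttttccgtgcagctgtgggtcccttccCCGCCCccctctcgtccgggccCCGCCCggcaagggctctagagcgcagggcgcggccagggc

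The Col3a1 window held CAGACA at -239 and, on the opposite strand, at -65, counted in bases before the start, and TATAAA at -117, with 35.2% G and C. The Col5a3 window held CCAAT at -122 and GGGCGG on the opposite strand at -63 and -41, with 62.8% G and C. Among the 5 members with a promoter, CCAAT was found in 3, GGGCGG in 4, CAGACA in 3 and TATAAA in 1. The same letters occurred in 33.8%, 32.7%, 17.1% and 12.4% of 32817 RefSeq promoters of this length, in that order. A match is a description of the sequence, not a bound site or a cause.

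Of 16 genes for factors that bind these or other collagen promoter elements, 14 were tested, 3 were called higher and 1 lower, with a median log2 fold change of 0.020. The share called was 28.6%, against 44.9% of all genes tested. Ybx1, which encodes the Y-box protein YB-1, rose from 152 ± 35.4 to 582 ± 65.3 CPM (SD, n = 3 each), a log2 fold change of 1.94 (adjusted p = 4.28e-07). Rfx1, whose product binds near the start site of type I collagen genes, fell by 0.78 on the log2 scale (adjusted p = 0.00958). Of 19 genes of the TGFβ response, all tested, 9 were called lower and 4 higher, with a median of -0.51. Here 68.4% were called. Ltbp2, named for the family of latent TGFβ binding proteins, fell by 2.29 (adjusted p = 8.27e-08), whereas Id3, an inhibitor of bHLH factors, rose by 3.43 (adjusted p = 4.94e-09).

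The balance of the chains was then compared within each library, which removes the scaling from the comparison. The reads of Col1a1, Col1a2 and Col3a1 together made 77.1%, 76.5% and 72.4% of all reads of the 7 genes in wt libraries and 85.3%, 82.6% and 81.0% in Tks5+/- libraries. The 3 type V genes made 20.4%, 21.5% and 24.9% in wt and 12.8%, 15.0% and 16.5% in Tks5+/- libraries. The genotypes did not overlap in these sums. With Col11a1 they make up all reads of the 7 genes, so a rise of one share largely goes with a fall of the other. The 53.8% of all genes tested without overlap refers to CPM levels of single genes in either direction. No such background was worked out for shares. Col1a1 alone took 44.5% ± 1.61 and 48.9% ± 0.937 (SD, n = 3), Col5a1 6.55% ± 0.952 and 4.13% ± 0.577, Col5a2 13.1% ± 0.423 and 10.4% ± 1.86, and Col5a3 2.60% ± 1.06 and 0.233% ± 0.0819, each without overlap. The shares of Col1a2 (22.8% ± 2.38 and 23.7% ± 2.70), Col3a1 (8.08% ± 1.15 and 10.4% ± 1.81) and Col11a1 (2.43% ± 0.361 and 2.21% ± 0.323) overlapped between genotypes, as did that of both type I genes together (67.3% ± 1.77 and 72.6% ± 3.40). The summed level of the 7 genes was 4286 ± 898 CPM (SD, n = 3) in wt and 5321 ± 1513 CPM (SD, n = 3) in Tks5+/- LFs.

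Relative to Col1a1 in the same library, each of the 3 type V genes was lower in every Tks5+/- library than in every wt library. The log2 ratio of Col5a1 to Col1a1 was -2.95, -2.84 and -2.53 in wt and -3.51, -3.81 and -3.41 in Tks5+/- libraries, a difference of -0.80. For Col5a2 the ratios were -1.78, -1.83 and -1.69 against -2.59, -2.11 and -2.04, a difference of -0.48. For Col5a3 they were -4.40, -4.60 and -3.51 against -8.33, -7.25 and -7.74, a difference of -3.60. A lower ratio to Col1a1 without overlap was seen for 34.6% of all genes tested, so it was common in these libraries. Each of these differences had an exact two-sided permutation p = 0.1, the smallest possible, and 0.2 after adjustment over 8 ratios, so none passed a threshold.

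Col5a3 also fell relative to its partner chain Col5a1, with log2 ratios of -1.45, -1.77 and -0.98 in wt and -4.82, -3.44 and -4.33 in Tks5+/- libraries, a difference of -2.80 (exact permutation p = 0.1). Such a lower ratio to Col5a1 without overlap was found for 12.8% of genes tested. The other 4 ratios overlapped between genotypes. Col1a2 to Col1a1, the ratio of the type I chains, was -0.97 ± 0.19 and -1.05 ± 0.15 (SD, n = 3). Col3a1 to Col1a1 differed by 0.22 (exact permutation p = 0.4), Col11a1 to Col1a1 by -0.28 (p = 0.3) and Col5a2 to Col5a1 by 0.33 (p = 0.3).

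**Figure D2:**
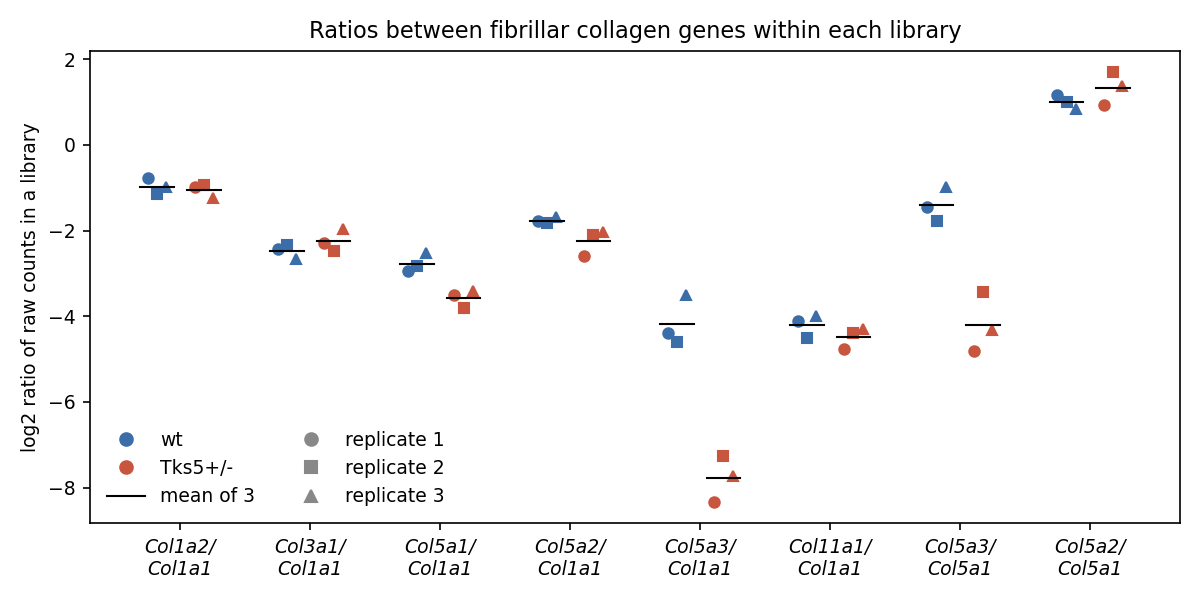
Log2 ratio of the raw counts of 2 fibrillar collagen genes in the same library (vertical axis) for 8 ratios, in wt (blue) and Tks5+/- (red) libraries; marker shapes give replicate numbers and black lines the mean of 3. The ratios of Col5a1, Col5a2 and Col5a3 to Col1a1, and of Col5a3 to Col5a1, do not overlap between genotypes, with differences of -0.80, -0.48, -3.60 and -2.80.

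Ordered by reads, which in a 3′ protocol are not divided by transcript length, the wt series ran Col1a1, Col1a2, Col5a2, Col3a1, Col5a1, Col5a3 and Col11a1. The ranges of Col5a2 and Col3a1, of Col3a1 and Col5a1, and of Col5a3 and Col11a1 overlapped. Within each wt library, however, Col5a2 had more reads than Col3a1 (863 and 552, 1251 and 884, and 1217 and 624), whereas the order of the other pairs changed between libraries. In Tks5+/- LFs the order was Col1a1, Col1a2, Col3a1, Col5a2, Col5a1, Col11a1 and Col5a3, and among neighbours only Col3a1 and Col5a2 overlapped, with an order that changed between libraries. Col5a3 thus moved from the range of Col11a1 to the last place, below every Col11a1 library.

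The fibrillar genes were set beside the other collagens of the genome. Of 37 collagen gene symbols that are no members, 1 had no matching gene in these data, and 16 were tested. Among those tested, 11 were called lower, 1 was called higher and 15 had a log2 fold change below 0, with a median of -1.25. Over all genes tested, 44.9% were called and 22.1% were called lower. Among the fibril-associated and microfibrillar collagens, 7 of 10 tested were called lower and 1 higher (median -1.12). Col12a1, a FACIT collagen that sits on type I fibrils, fell from 123 ± 13.3 to 44.4 ± 11.9 CPM (SD, n = 3 each; log2 fold change -1.46, adjusted p = 2.38e-05). Col9a3 rose from 4.88 ± 1.39 to 17.5 ± 5.72 CPM (1.86, adjusted p = 5.62e-04). Of the network-forming and other collagens, 4 of 6 tested were called lower (median -1.57), among them the basement membrane chain Col4a2 at -1.82 (adjusted p = 1.58e-06). Col15a1 (-4.48) and Col8a2 (-3.75), also called lower, fell further than Col5a3, with at most 3 reads in every Tks5+/- library. Both had enough reads to be tested only through their wt libraries, so their calls carry little weight. Both are counted among the 4 and the 11 genes called lower and enter the medians of -1.57 and -1.25.

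**Figure D3:**
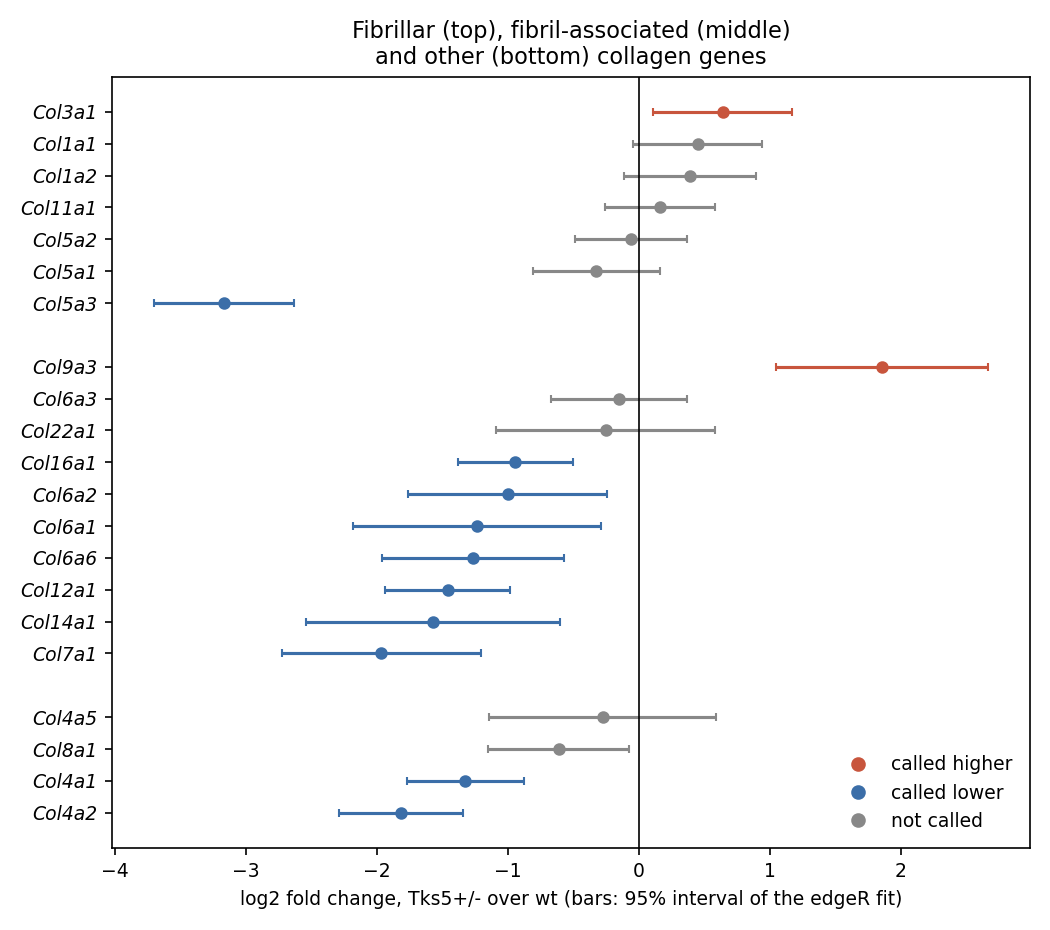
Log2 fold change of Tks5+/- over wt LFs (horizontal axis) for the tested fibrillar, fibril-associated and other collagen genes, with the 95% interval of the edgeR fit; red and blue mark genes called higher and lower and grey those not called. Collagen genes with at most 3 reads in every Tks5+/- library are left out. Among the tested genes these are Col15a1 (-4.48) and Col8a2 (-3.75), both called lower. Apart from Col5a3 at -3.17, the fibrillar genes lie between -0.32 and 0.64, while most other collagens lie below them.

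Fold changes fell with transcript length across all genes (Spearman's rho = -0.397 over 10339 genes, a description across genes that share the same 6 libraries), and fibrillar collagen transcripts are long. Among the 1437 tested genes whose longest transcript lies in the members' range of 5348 to 8406 bases, the median log2 fold change was -0.49, with 5.71% called higher and 35.7% called lower. Except for Col5a3, every member lay above that median. When each library was corrected for its trend with length, 5 of the 7 members were called, against 38.9% of all genes, and Col1a1 (0.87, adjusted p = 0.00332), Col1a2 (0.75, adjusted p = 0.0123), Col3a1 (1.03, adjusted p = 0.00177) and Col11a1 (0.71, adjusted p = 0.00602) were called higher. Col5a3 was called lower in that fit too, at -2.71. Col5a1 and Col5a2 were not called, at 0.24 and 0.43.

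**Figure D4:**
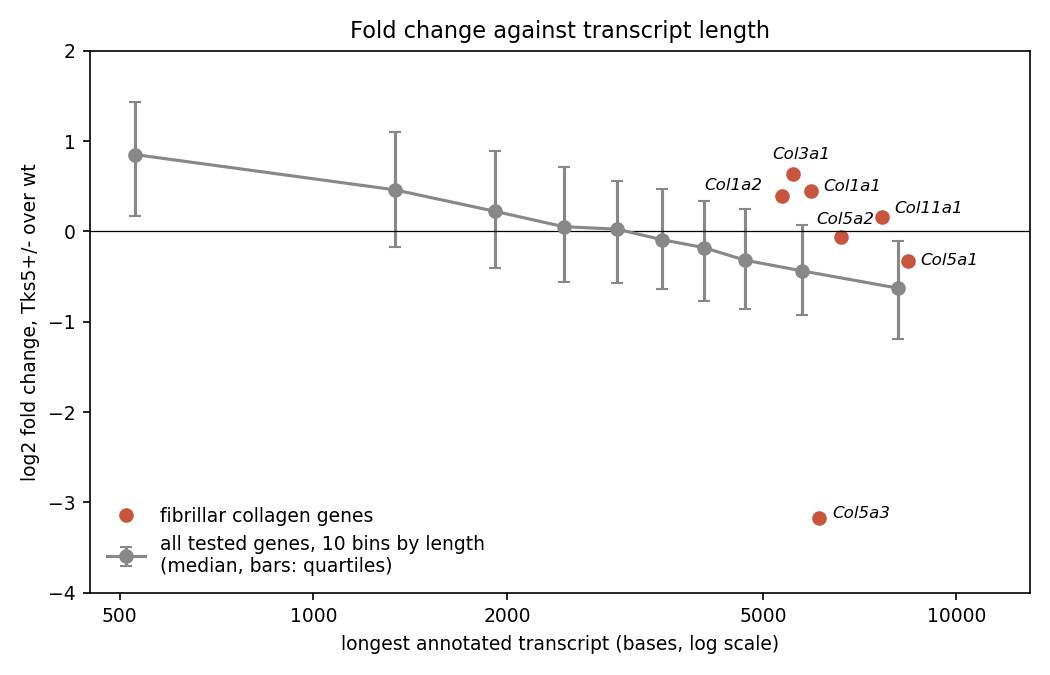
Log2 fold change of Tks5+/- over wt LFs (vertical axis) against the length of the longest annotated transcript in bases (horizontal axis, log scale). Grey points are the medians of 10 bins of the tested genes by length with quartile bars, and red points are the 7 fibrillar collagen genes, of which all but Col5a3 lie above the median of -0.49 for genes in their range of length.

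The calls of the other members moved with the processing as well. A correction for GC content alone gave 3 members called, against 44.5% of all genes, with Col1a1 at 0.74 (adjusted p = 0.0124). Corrections for length and GC content together gave 5 members, against 36.3% of all genes. Scaling by library totals gave 2 members, both lower (51.3% of all genes), and so did the authors' normalized counts (42.8%). In both of these Col5a1 was called lower beside Col5a3, at -0.72 and -0.63. Upper-quartile scaling (44.9% of all genes), a minimum of 10 counts in every library (46.9%) and a test against a fold change of 1.2 (39.5%) each left Col5a3 as the one member called. Col3a1 had a positive log2 fold change in all 21 alternatives and was called higher in 12.

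**Figure D5:**
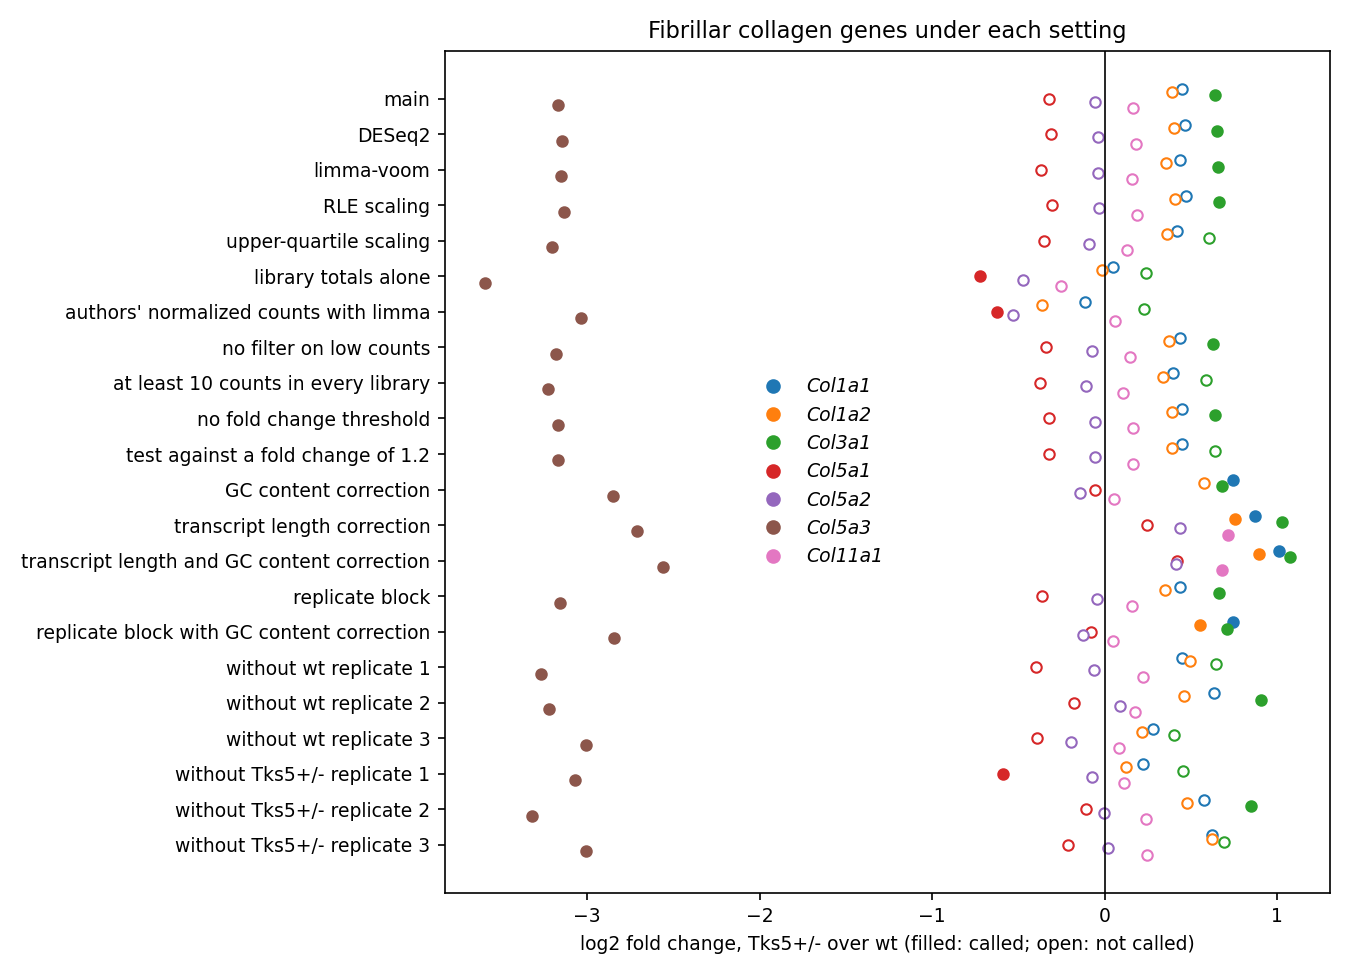
Log2 fold change of Tks5+/- over wt LFs (horizontal axis) of each fibrillar collagen gene under the main setting and 21 alternatives (rows); filled points were called and open points were not. Col5a3 is called lower in every row, whereas Col1a1, Col1a2, Col5a1, Col5a2 and Col11a1 lie on either side of 0 depending on the setting.

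The genes that act on fibrillar collagens after transcription were taken from lists set by their known roles, Tango2 excepted. Of 21 genes for the modification and folding of procollagen in the endoplasmic reticulum, 19 were tested, with 5 called lower and 3 higher (median log2 fold change -0.36). The share called was 42.1%, near the 44.9% of all genes tested. P4ha3, an α subunit of prolyl 4-hydroxylase, fell from 68.4 ± 3.43 to 20.4 ± 3.60 CPM (SD, n = 3 each; -1.74, adjusted p = 4.03e-06), whereas P4ha1 and P4ha2, the other α subunits, were called higher at 0.62 each. Ppib, a peptidyl-prolyl isomerase of the procollagen prolyl 3-hydroxylase complex, rose from 75.0 ± 27.3 to 132 ± 19.8 CPM (0.83, adjusted p = 0.00726). Serpinh1, the collagen chaperone HSP47, was not called, at 0.48 (adjusted p = 0.0985).

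Of 16 genes for the export and the proteolytic processing of procollagen, 11 were tested, 5 were called lower and 1 higher (median -0.75). The share called was 54.5%, against 44.9% of all genes tested. Bmp1, the C-proteinase that releases the C-propeptide, fell from 178 ± 3.54 to 66.3 ± 11.8 CPM (SD, n = 3 each; -1.42, adjusted p = 1.17e-05). Adamts2, which removes the N-propeptide, was called lower at -1.73, and so was Pcolce, the enhancer of the C-proteinase, at -0.74. Mia3 (TANGO1) and Mia2, the cargo receptors that load procollagen for export from the endoplasmic reticulum, were called lower at -0.93 (adjusted p = 0.00150) and -0.79. The 1 gene called higher was Tango2, at 0.93 (adjusted p = 0.00388), which has no established role in procollagen export.

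Crosslinking genes had 5 of 6 tested, with 2 called lower and none higher (median -0.17). The share called was 40.0%, near the 44.9% of all genes tested. Lox, the lysyl oxidase that starts the crosslinks between fibrillar collagen molecules, fell from 3315 ± 514 to 963 ± 193 CPM (SD, n = 3 each; -1.78, adjusted p = 1.54e-06), and Loxl1 fell by 1.02. Of 16 genes for proteins that bind or organise fibrils, 12 were tested and 6 were called lower, none higher (median -0.81). Bgn, which encodes the small proteoglycan biglycan, fell from 4805 ± 659 to 1180.2 ± 266 CPM (-2.03, adjusted p = 3.64e-07). Fn1, the fibronectin on which fibrils are assembled, was called lower at -1.55.

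Collagen receptors had 6 of 9 genes tested, of which 3 were called lower and none higher (median -0.90). Itga11, whose integrin binds type I collagen on fibroblasts, fell from 47.3 ± 14.5 to 5.73 ± 2.49 CPM (SD, n = 3 each; -3.01, adjusted p = 4.57e-07). Of 12 genes for collagen degradation, 9 were tested, with 3 called lower and 3 higher (median -0.42). Here 66.7% were called, against the same 44.9%. Mmp8, a collagenase first described in neutrophils, fell from 137 ± 28.7 to 11.7 ± 1.56 CPM (-3.54, adjusted p = 1.76e-09), while Mmp13, another collagenase, rose from 6.14 ± 0.501 to 32.7 ± 16.0 CPM (2.41, adjusted p = 2.80e-05). Beside these lists, whose medians lay between -0.17 and -0.90, the fibrillar genes had a median of 0.16. That median depended on the scaling. It was -0.25 with library totals alone and -0.36 with the authors' normalized counts, where the medians of these lists were not worked out.

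The genes whose pattern over the 6 libraries was nearest to each member were found by the root mean square difference of log2 CPM, each gene centred on its own mean, among 10023 genes with a mean of at least 10 counts. For Col5a3 this was Cdh6, which encodes a cadherin, at a difference of 0.224 and a log2 fold change of -3.57 (20.2 ± 3.18 to 1.65 ± 0.110 CPM, SD, n = 3 each). Cdh6 met the minimum count only through its wt libraries. Its level in Tks5+/- libraries rests on very few reads, so the match carries little weight. Sh3bp5 was nearest to both Col1a1 (0.117) and Col1a2 (0.124), Thra to Col3a1 (0.129), Nts to Col5a1 (0.0642), Ppat to Col5a2 (0.0565) and Tpm2 to Col11a1 (0.0358). Among the members themselves, Col1a2 was the 10th nearest gene to Col1a1 at 0.145, and Col1a1 the 7th nearest to Col1a2. The chains of type V were not close to each other, with Col5a2 the 698th nearest gene to Col5a1.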

How the data were processed

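Quant-Seq libraries of TGFβ-treated LFs, 3 wt and 3 Tks5+/-, were analysed from tables of raw counts and of normalized counts per gene. The raw counts were made by the authors with Trim Galore for trimming, HISAT2 for alignment to GRCm38, Bowtie2 for the reads left over, and metaseqR2 for counting over 3′ UTRs extended by 50 bases, summed per gene. The deposited normalized counts, made by the authors with EDASeq and rounded, were treated as a score and used in 1 alternative, and their sorted values are identical in all 6 libraries. The strand setting of the counting is not given in the sources used here. Of the 55364 genes, 55104 were matched to GENCODE M21 (GRCm38), and 21720 had a count.

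Raw counts were tested over 10346 genes by edgeR 4.0.16 under R 4.3.3, using filterByExpr, TMM, robust glmQLFit and glmQLFTest with genotype alone. Intervals and standard errors come from that fit. Ratios of raw counts within a library and CPM of single genes were compared by exact two-sided permutation tests. Alternatives used DESeq2 1.42.0, limma 3.58.1 (log2 of the score plus 1), other scalings and filters, loess corrections (span 0.5) for GC content or transcript length, a block for replicate numbers, and fits without 1 library each. The scripts were tested on simulated data. Depth was 1344507 to 2369882 reads per library, which limits precision most for Col5a3 in Tks5+/- LFs, at 19 to 25 reads.

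The members, the gene lists and the tests were chosen with earlier results of these data known. Genes named are the 7 members, the gene with the nearest pattern to each, the called gene of each list with the smallest adjusted p in each direction, and Sh3pxd2a. Gm38211, P4ha1, P4ha2, Serpinh1, Adamts2, Pcolce, Mia2, Mia3, Loxl1, Fn1, S100a4, Eif2s3y, Ddx3y and the called cell type markers were named after their values were seen. Col15a1 and Col8a2 were likewise named after their values were seen. Other markers are named where all libraries had 0 counts.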

Additional observations from a re-analysis of the deposited data

How the results depend on the processing

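The number of fibrillar collagen genes called, 2 of 7, became 1 with upper-quartile scaling, a minimum of 10 counts in every library or a test against a fold change of 1.2, and 5 with the correction for transcript length, alone or with GC content. Leaving out each library gave 1 to 2, with 35.4% to 42.0% of all genes called. The replicate number as a block left 2 members called (45.1% of all genes) and, with the GC correction, gave 4 (44.5%). Same-numbered libraries had correlations of deviations of -0.0010, -0.064 and 0.082, and differently numbered ones had -0.10 to 0.097. So few values cannot decide whether libraries shared a litter, culture or batch. All genes called numbered 4642 and, over the 21 alternatives, 3705 to 5306, or 22.8% to 51.3% of those tested. Signs that turned, none of them in Col3a1 or Col5a3, were Col1a1 at -0.11 and Col1a2 at -0.36 with the authors' normalized counts, Col1a2 at -0.013 and Col11a1 at -0.25 with library totals, Col5a1 at 0.24 and Col5a2 at 0.43 with the length correction, and Col5a1 at 0.42 and Col5a2 at 0.41 with length and GC content. Leaving out each library, Col5a2 ran from -0.20 to 0.090 and the log2 ratio of Col1a2 to Col1a1 differed by -0.17 to 0.015. With the authors' normalized counts the ratio of Col11a1 to Col1a1 differed by 0.17. The cause of these changes was not tested. With 3 libraries a genotype, no exact test could pass 0.05.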
